A study of Homo sapiens with 4 samples.

Results

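The HOXA cluster on chromosome 7 was followed through its coding genes HOXA2, HOXA3, HOXA4, HOXA5, HOXA6, HOXA7, HOXA9, HOXA10, HOXA11 and HOXA13, the 10 members described here. They were taken from the 58037 rows of the count table by Ensembl identifier and ordered by their position in the cluster. RNA had been sequenced from OCI-AML3 cells 3 days (72 hours) after transfection of a guide RNA for CRISPR-Cas9 editing, either sgNeg, the control guide (2 libraries), or sgNPM1A, the guide against the mutant NPM1 allele (2 libraries). OCI-AML3 is an established human acute myeloid leukemia line with heterozygous mutations of NPM1 and DNMT3A and a homozygous NRAS mutation. The sgNPM1A guide was directed at the NPM1 mutation, and both conditions shared those of DNMT3A and NRAS. They also shared their culture, for which the labels give alpha-MEM and the study's methods RPMI, both with fetal bovine serum. The libraries came from transfected populations, and no selection of a clone was stated. The labels only number the libraries 1 and 2 within each condition, so p-values measure the spread between these libraries.

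HOX genes encode homeodomain transcription factors that lay out the body axis, and they sit in their clusters in the order in which they are used from head to tail. In blood, HOXA genes are expressed in stem and progenitor cells and are shut off as cells mature. AML cells with mutant NPM1 (mtNPM1) keep HOXA and HOXB genes and the HOX cofactor MEIS1 active, and this expression is known to need menin and MLL1 (KMT2A), whereas Polycomb complexes oppose it.

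All members are transcribed from the minus strand, and together they covered 99.7 kb, from 27100354 to 27200091 on chromosome 7 of GRCh38. On that chromosome and build RefSeq places HOXA2 (ENSG00000105996.6) from 27100354 to 27102683, HOXA3 (ENSG00000105997.22) from 27107010 to 27152583, HOXA4 (ENSG00000197576.13) from 27128525 to 27130757, HOXA5 (ENSG00000106004.4) from 27141052 to 27143681, HOXA6 (ENSG00000106006.6) from 27145396 to 27147774 and HOXA7 (ENSG00000122592.7) from 27153716 to 27156675. The posterior genes follow, HOXA9 (ENSG00000078399.16) from 27162438 to 27165537, HOXA10 (ENSG00000253293.4) from 27170605 to 27179861, HOXA11 (ENSG00000005073.5) from 27181157 to 27185232 and HOXA13 (ENSG00000106031.7) from 27194364 to 27200091. The HOXA3 model spans HOXA4, HOXA5 and HOXA6, and HOXA2 lies at the anterior end and HOXA13 at the posterior end. RefSeq (GRCh38.p14) gave a promoter window for 9 of the 10 members and none for HOXA5. The 250 bases upstream of the start are shown for both ends of the cluster and for HOXA9, the member most studied in AML, since these genes moved together. They lie on the minus strand at chr7:27102684-27102933 (HOXA2), chr7:27165538-27165787 (HOXA9) and chr7:27200092-27200341 (HOXA13). Capitals mark matches, on either strand, to the CCAAT box (CCAAT), the TATA box (TATAAA), the E box (CACGTG), the site that MEIS proteins prefer (TGACAG) or that of a HOX protein with PBX (TGATTTAN).
HOXA2: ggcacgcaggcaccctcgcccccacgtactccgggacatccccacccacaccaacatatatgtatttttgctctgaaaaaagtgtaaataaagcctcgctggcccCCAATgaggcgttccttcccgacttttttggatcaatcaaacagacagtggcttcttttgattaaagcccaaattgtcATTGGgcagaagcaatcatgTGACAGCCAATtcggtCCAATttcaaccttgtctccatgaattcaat
HOXA9: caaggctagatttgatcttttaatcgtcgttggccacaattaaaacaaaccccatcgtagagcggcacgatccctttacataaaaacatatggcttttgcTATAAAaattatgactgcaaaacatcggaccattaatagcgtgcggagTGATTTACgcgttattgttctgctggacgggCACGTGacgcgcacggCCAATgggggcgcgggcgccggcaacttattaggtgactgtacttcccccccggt
HOXA13: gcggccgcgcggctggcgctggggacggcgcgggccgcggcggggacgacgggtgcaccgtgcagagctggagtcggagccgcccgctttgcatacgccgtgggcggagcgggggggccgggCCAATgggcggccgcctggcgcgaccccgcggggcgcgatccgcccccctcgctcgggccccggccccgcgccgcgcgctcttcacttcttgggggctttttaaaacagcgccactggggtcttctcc

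The CCAAT box was found in 8 of the 9 windows, all but that of HOXA11, and in 32.0% of the 35116 RefSeq windows of this length. The TATA box was found in 3 of 9 members (10.7% of all windows), the MEIS site in 2 (13.0%), the E box in 2 (6.35%) and the HOX and PBX site in 1, that of HOXA9 (2.58%). The HOX and PBX site and the TATA box can share letters, and no match printed above did so. The HOXA2 window held 4 CCAAT boxes and 47.2% G and C, the lowest of the members, and the HOXA13 window 78.0%, the highest, beside a median of 58.0% over all windows. CpG dinucleotides stood at between 0.609 and 1.344 of the number that base composition gives, against a median of 0.558. These are letters in the reference and describe neither binding nor a cause.

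Counts summed to between 25069484 and 28276391 per library, and 15718 genes had enough reads to be tested. Levels are counts scaled to library size by edgeR's TMM method (CPM), for which 3 counts correspond to between 0.108 and 0.118, a floor that covers counting error only. A gene was called at an adjusted p under 0.05 in edgeR's quasi-likelihood test together with a log2 fold change of at least 0.32 in size, the fold threshold of the study's methods. NPM1, the targeted gene, had 33522 and 35881 counts with sgNeg and 33154 and 31428 with sgNPM1A, which edgeR put at -0.22 on the log2 scale (adjusted p = 0.0360) and which was under the fold threshold. Counts per gene do not tell the mutant from the wild-type allele, and therefore do not check the edit.

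Every member was lower with sgNPM1A, at both ends of the cluster and between them. All 10 were called lower, where 10.3% of tested genes were, and 0 were called higher by edgeR, DESeq2 or limma, all 10 log2 fold changes being negative, where edgeR called 10.5% of tested genes higher. Both sgNPM1A libraries were below both sgNeg libraries for 10 of 10 members, as for 31.7% of tested genes, and 10 of 10 were called at a fold of at least 2, as were 3.19% of tested genes. However, 6 members, HOXA2 to HOXA7, entered the test through their sgNeg libraries, since no sgNPM1A library (4 members) or 1 of them (2 members, HOXA3 and HOXA5) was over the filter on low counts, so that for them the filter favoured a fall. In the test restricted to genes with at least 10 counts in every library, 4 members remained, HOXA9, HOXA10, HOXA11 and HOXA13, and 4 of 4 were called lower beside 10.4% of the genes in that test. The median log2 fold change of the members was -3.35, or -2.53 with the genes at 0 set to their smallest fall, and that of all tested genes was 0.00018. In bulk libraries fewer cells of a type and less RNA per cell cannot be told apart.

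**Figure D1:**
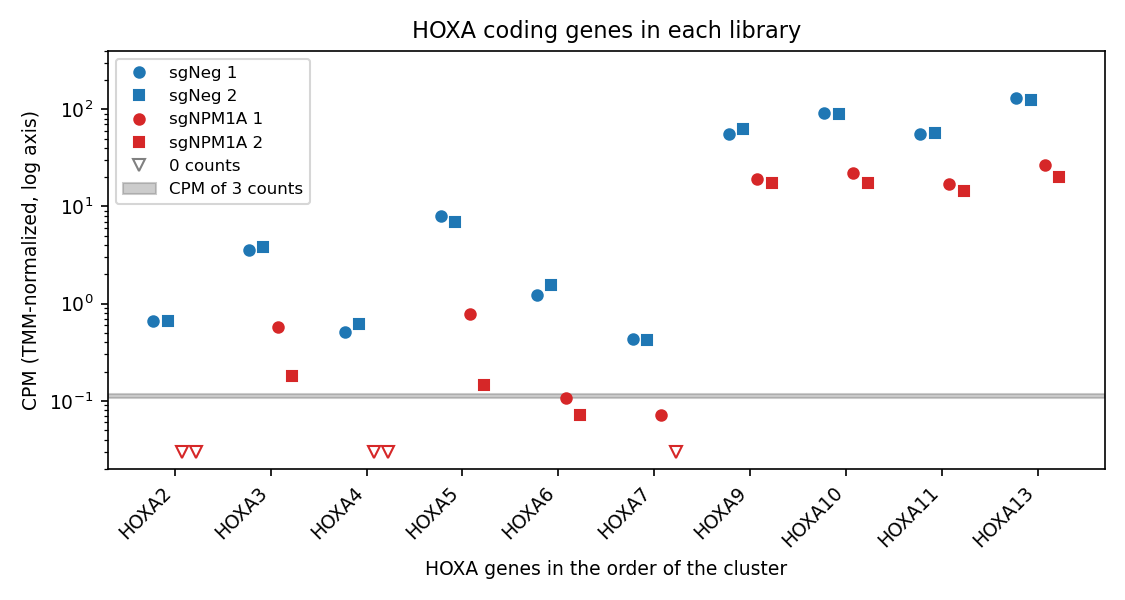
CPM of the 10 HOXA genes (log axis) in cluster order from HOXA2 to HOXA13, one point per library, with sgNeg in blue and sgNPM1A in red, open triangles for 0 counts drawn at the foot of the axis, and a grey band at the CPM of 3 counts. HOXA9, HOXA10, HOXA11 and HOXA13 lay between 55.9 and 130 CPM with sgNeg and between 14.5 and 26.8 CPM with sgNPM1A, whereas HOXA2 to HOXA7 lay at 7.99 CPM or lower with sgNeg and at 0.789 CPM or lower with sgNPM1A.

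The posterior genes carried most of the HOXA reads. HOXA13, which patterns the digits and the hindgut and urogenital tract, had 3302 and 3191 counts with sgNeg and 747 and 558 with sgNPM1A. The sgNeg libraries were close to each other and lay well above the sgNPM1A libraries. HOXA13 went from 127 ± 4.73 to 23.4 ± 4.74 CPM (± SD, n = 2), which edgeR fitted as -2.43 ± 0.11 on the log2 scale (± SE, adjusted p = 1.16e-07). HOXA11, known for its part in the forearm and the uterus, had 1422 and 1482 counts with sgNeg and 470 and 402 with sgNPM1A. The groups did not overlap, and HOXA11 went from 56.6 ± 0.906 to 15.7 ± 1.69 CPM (± SD, n = 2), which edgeR fitted as -1.85 ± 0.09 on the log2 scale (± SE, adjusted p = 1.97e-07).

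HOXA10, which is expressed in blood progenitors and promotes their expansion, had 2343 and 2291 counts with sgNeg against 623 and 482 with sgNPM1A. The sgNeg libraries were close to each other and the sgNPM1A libraries less so. HOXA10 fell from 90.3 ± 2.63 to 19.9 ± 3.53 CPM (± SD, n = 2), which edgeR fitted as -2.19 ± 0.11 on the log2 scale (± SE, adjusted p = 1.65e-07). HOXA9, a driver of progenitor self-renewal that acts with MEIS1 in AML, had 1431 and 1612 counts with sgNeg and 536 and 487 with sgNPM1A. It fell from 59.3 ± 4.20 to 18.4 ± 1.20 CPM (± SD, n = 2), which edgeR fitted as -1.69 ± 0.09 on the log2 scale (± SE, adjusted p = 3.21e-07). This was the smallest fall of the 10 members, although its 95% interval, from -1.89 to -1.49, overlapped those of HOXA11 (-2.06 to -1.64) and HOXA7. The log2 fold changes of these 4 genes stayed between -2.65 and -1.61 when any 1 library was left out.

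Among the anterior genes HOXA5, a regulator of lung and blood development, had the most reads. It had 203 and 181 counts with sgNeg and 22 and 4 with sgNPM1A, so that the sgNPM1A libraries differed several-fold from each other and both lay far below sgNeg. HOXA5 fell from 7.49 ± 0.705 to 0.467 ± 0.456 CPM (± SD, n = 2), which edgeR fitted as -3.99 ± 0.35 on the log2 scale (± SE, adjusted p = 1.10e-05), or -5.65 without sgNPM1A 1 and -3.24 without sgNPM1A 2. HOXA3, needed for the thymus and parathyroid, had 91 and 100 counts with sgNeg and 16 and 5 with sgNPM1A. It fell from 3.72 ± 0.199 to 0.377 ± 0.279 CPM (± SD, n = 2), which edgeR fitted as -3.29 ± 0.34 on the log2 scale (± SE, adjusted p = 3.52e-05), or -4.33 without sgNPM1A 1 and -2.69 without sgNPM1A 2.

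HOXA2, which patterns the hindbrain and the neural crest of the branchial arches, had 17 and 17 counts with sgNeg and 0 and 0 with sgNPM1A. HOXA4, a gene of the cervical and trunk axis, had 13 and 16 counts with sgNeg and likewise 0 and 0 with sgNPM1A. Neither gene was detected in any sgNPM1A library. Against the floor of 3 counts in each library, HOXA2 was at least 6.14-fold lower and HOXA4 at least 5.24-fold lower, with adjusted p = 5.49e-04 and 9.93e-04 (edgeR). HOXA6 had 31 and 40 counts with sgNeg and 3 and 2 with sgNPM1A, and the ratio of its summed counts, scaled for library size, was 15.4 (95% exact interval 6.30 to 48.9, counting error only), with adjusted p = 1.07e-04 (edgeR). HOXA7 had the fewest counts, 11 and 11 against 2 and 0, a ratio of 11.9 (95% exact interval 2.93 to 105) and adjusted p = 0.00989 (edgeR). The HOXA7 call was the closest to the threshold, since its adjusted p (edgeR) rose to 0.0496 without sgNPM1A 2, and its log2 fold change of -3.42 then became -2.50.

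Reads from overlapping genes bear on some of these values, because how strand was handled in counting is not given in the sources used here. In GENCODE 44 models, 62.5% of the exon bases of HOXA7 lay opposite exons of the antisense gene HOXA-AS3, as did 39.3% of those of HOXA6, and 27.2% of those of HOXA11 lay opposite HOXA11-AS. Of HOXA4, 31.3% of exon bases were shared with a gene model on the same strand, ENSG00000273433. HOXA9 shared 15.9% of its exon bases with gene models on the same strand and 13.9% with HOXA10-AS on the other strand. For HOXA10 these shares were 9.93% and 16.4%, the latter also with HOXA10-AS. For HOXA3 they were 9.29% and 17.3%, the latter with HOXA-AS2 and HOXA-AS3. HOXA2 and HOXA5 shared 0% with any other gene on either strand, and HOXA13 shared 1.70% with HOTTIP on the other strand.

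Per length of exon, HOXA9, HOXA10, HOXA11 and HOXA13 stood above HOXA2 to HOXA7, within which the order did not follow position. HOXA13 had 25.0 ± 0.933 CPM per kb with sgNeg (SD, n = 2), HOXA10 had 24.4 ± 0.709, HOXA11 had 21.2 ± 0.339 and HOXA9 had 19.5 ± 1.39. HOXA13 and HOXA10 did not differ beyond their spread, and with the longest transcript as length HOXA10 and HOXA9 came before HOXA13 and HOXA11, so the order among these 4 depends on the gene model. HOXA5 followed at 4.35 ± 0.410 CPM per kb, then HOXA6 at 1.08 ± 0.179, HOXA3 at 0.864 ± 0.0462, HOXA4 at 0.327 ± 0.0435, HOXA2 at 0.284 ± 0.00375 and HOXA7 at 0.178 ± 0.00235 (SD, n = 2). HOXA2 and HOXA4 exchanged places with the longest transcript as length. With sgNPM1A, HOXA9 stood at 6.06 ± 0.394 CPM per kb, HOXA11 at 5.87 ± 0.632, HOXA10 at 5.36 ± 0.952 and HOXA13 at 4.62 ± 0.935 (SD, n = 2), and neighbours in this order overlapped.

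**Figure D2:**
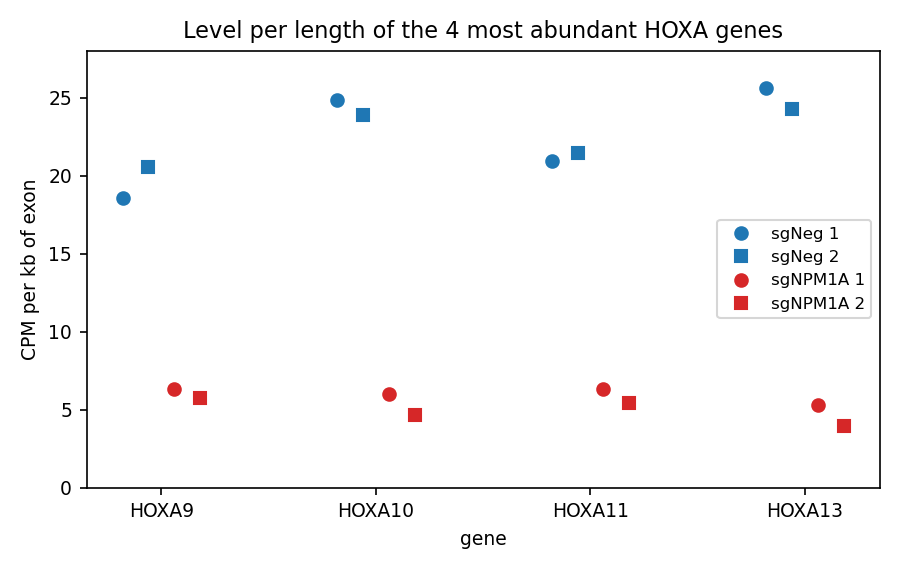
CPM per kb of exon (linear axis from 0) of HOXA9, HOXA10, HOXA11 and HOXA13, one point per library, with sgNeg in blue and sgNPM1A in red. The sgNeg means ran from 19.5 (HOXA9) to 25.0 (HOXA13) and the sgNPM1A means from 4.62 (HOXA13) to 6.06 (HOXA9).

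Summed over the 10 members, the level was 4.43-fold lower with sgNPM1A. The members summed to 347 ± 2.46 CPM with sgNeg and 78.3 ± 12.0 CPM with sgNPM1A (SD, n = 2). HOXA9, HOXA10, HOXA11 and HOXA13 together went from 333 ± 2.25 to 77.4 ± 11.2 CPM, a 4.30-fold difference, and HOXA2 to HOXA7 together from 14.2 ± 0.216 to 0.969 ± 0.811 CPM, a 14.7-fold difference that was 9.23-fold without sgNPM1A 2 and 36.0-fold without sgNPM1A 1. These sums were not tested. The 4 posterior genes accounted for 95.9% and 95.9% of the HOXA counts in the sgNeg libraries and for 98.2% and 99.4% in the sgNPM1A libraries. The share of HOXA13 was 37.3% and 35.7% with sgNeg and 30.9% and 28.8% with sgNPM1A, while that of HOXA9 was 16.1% and 18.0% with sgNeg and 22.2% and 25.1% with sgNPM1A.

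The counts of other members were also set against those of HOXA9 in the same library. HOXA13 had 2.31 and 1.98 counts for each HOXA9 count with sgNeg and 1.39 and 1.15 with sgNPM1A. The corresponding HOXA10 ratios were 1.64 and 1.42 against 1.16 and 0.990, and those of HOXA11 were 0.994 and 0.919 against 0.877 and 0.825. The HOXA5 ratio was 0.142 and 0.112 with sgNeg and 0.0410 and 0.00821 with sgNPM1A. In each of these 4 ratios both sgNPM1A libraries lay below both sgNeg libraries, a direction that follows from HOXA9 having the smallest fall of the members, and the exact permutation test of 2 libraries against 2 gave p = 0.333, the smallest it can give (two-sided, adjusted p = 0.467 over the 7 ratios compared), so that this design cannot place them past a threshold.

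**Figure D3:**
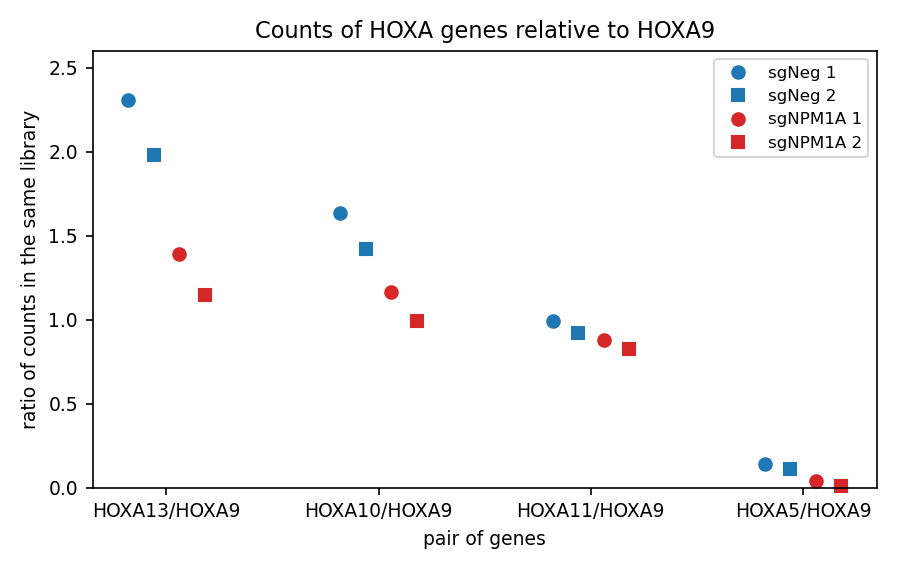
Counts of HOXA13, HOXA10, HOXA11 and HOXA5 divided by those of HOXA9 in the same library (linear axis from 0), one point per library, with sgNeg in blue and sgNPM1A in red. In every pair the sgNPM1A points lie below the sgNeg points, with HOXA13/HOXA9 at 2.31 and 1.98 against 1.39 and 1.15.

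The sgNPM1A libraries also differed from each other in one direction. Of the 8 members with any count in them, 8 were lower in sgNPM1A 2 than in sgNPM1A 1, as were 49.2% of all tested genes and 62.9% of the genes called lower. The HOXA sum was 86.8 CPM in sgNPM1A 1 and 69.9 CPM in sgNPM1A 2, and 349 and 345 CPM in the sgNeg libraries.

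Of the noncoding genes listed for the cluster 6 were matched to a row, and of the 5 tested 4 were called lower, all but HOTAIRM1 at the anterior end, beside 10.3% of all tested genes. One of the 4, HOXA-AS2, was over the filter on low counts in no sgNPM1A library, so that for it too the filter favoured a fall. HOTTIP, a noncoding RNA next to HOXA13 that is known to help keep posterior HOXA genes active, had 1295 and 1708 counts with sgNeg and 393 and 238 with sgNPM1A. Its log2 fold change from edgeR was -2.37 ± 0.19 (± SE, adjusted p = 4.46e-06). HOXA11-AS had 590 and 794 counts against 219 and 132 (log2 fold change -2.09), and HOXA10-AS 142 and 176 against 48 and 46 (log2 fold change -1.87). HOXA-AS2 had 19 and 17 counts against 4 and 0, a ratio of 9.76 (95% exact interval 3.50 to 37.7), and HOXA-AS3, with 25 and 9 against 1 and 0, was not tested. HOTAIRM1, which is induced in myeloid maturation, had 34 and 25 counts with sgNeg and 28 and 26 with sgNPM1A, a log2 fold change of -0.24 with a 95% interval from -0.90 to 0.41. The counts of HOTTIP per HOXA13 count, 0.392 and 0.535 with sgNeg and 0.526 and 0.427 with sgNPM1A, overlapped between conditions. Those of HOXA11-AS per HOXA11 count also overlapped, at 0.415 and 0.536 against 0.466 and 0.328. The HOXA10-AS counts per HOXA10 count were 0.0770 and 0.0954 with sgNPM1A against 0.0606 and 0.0768 with sgNeg, so that the conditions barely separated. For this ratio the exact permutation test again gave p = 0.333, the smallest it can give (adjusted p = 0.467).

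Outside the cluster, coding genes on either side moved in both directions. Of the 8 nearest, 4 on each side, 7 were tested, with 1 called lower, 3 called higher and 3 not called. Among all tested genes, 10.3% were called lower and 10.5% higher. SKAP2, which ends 235.8 kb from the HOXA2 gene, had 576 and 586 counts with sgNeg and 907 and 910 with sgNPM1A, a log2 fold change of 0.53 at an adjusted p of 8.56e-04 (edgeR). SNX10, beyond it, had a log2 fold change of 1.24 at an adjusted p of 3.80e-04 (edgeR), and CBX3 and HNRNPA2B1 farther out had 0.07 and -0.04 and were not called. On the posterior side EVX1, which begins 42.7 kb beyond HOXA13, had 2 and 2 counts with sgNeg and 0 and 0 with sgNPM1A and was not tested. HIBADH had a log2 fold change of 0.15 and was not called, TAX1BP1 of -0.33 (adjusted p = 0.00407, edgeR) and JAZF1 of 0.63 (adjusted p = 0.0160, edgeR).

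**Figure D4:**
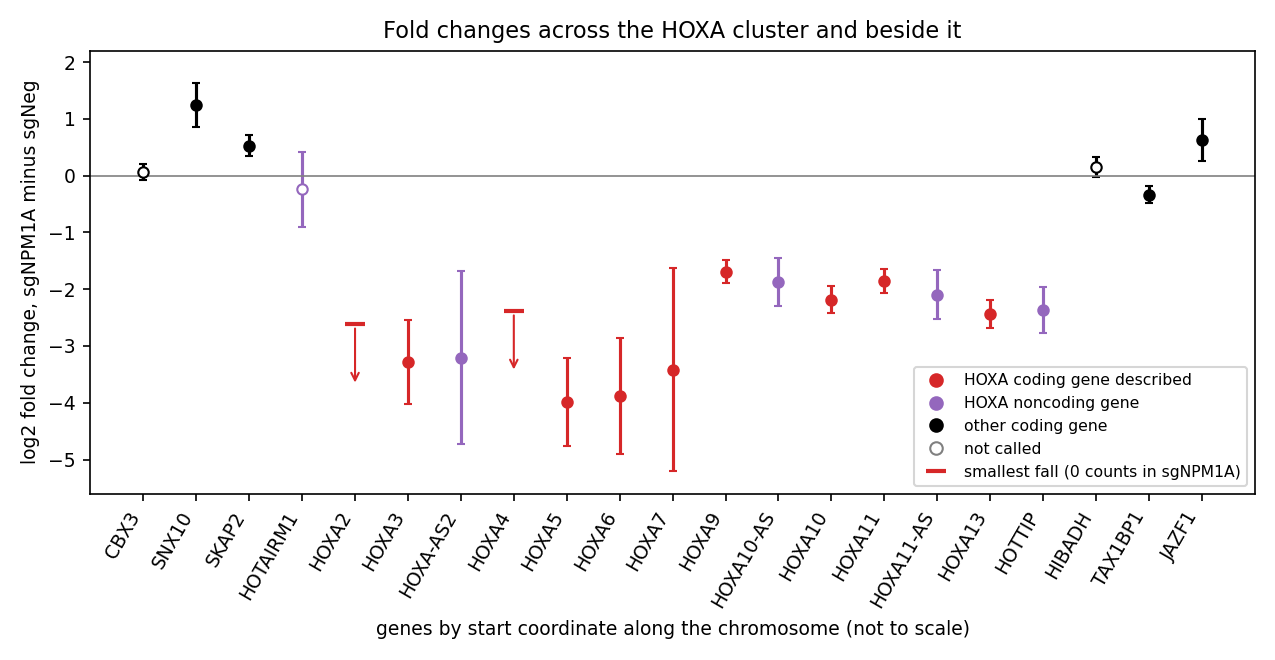
Log2 fold change (sgNPM1A minus sgNeg) with its 95% interval for the members (red), HOXA noncoding genes (purple) and other coding genes (black), ordered by start coordinate from CBX3 to JAZF1 and not to scale, with open points for genes not called and a dash with an arrow for the smallest fall of HOXA2 and HOXA4, at 0 counts in sgNPM1A. Members lie at -1.69 or lower or at their bounds of -2.62 and -2.39, whereas HOTAIRM1 (-0.24) and SKAP2 (0.53) lie near or above 0.

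HOXB genes of the same number, their paralogs on chromosome 17, were set beside the members from the same 4 libraries. In 7 of the 8 pairs both genes were called lower. Taken singly, 10.3% of all tested genes were called lower, which is not a rate for pairs. For HOXA2 to HOXA7 the filter on low counts favoured a fall, as described above. In 7 of 8 pairs the 95% intervals of the log2 fold changes did not overlap, although the difference within a pair was not tested. The intervals of HOXA2 and HOXA4 came from fits to 0 counts with sgNPM1A, for which only the smallest falls, -2.62 and -2.39, can be given. HOXB2 had a log2 fold change of -2.08, HOXB3 of -2.16 and HOXB6 of -1.62, each smaller in size than that of its HOXA paralog. The pair whose intervals overlapped was HOXB7, at -1.78 (-2.10 to -1.46), and HOXA7, at -3.42 (-5.20 to -1.63) with 2 and 0 counts in the sgNPM1A libraries. HOXB4 had 357 and 399 counts with sgNeg and 318 and 313 with sgNPM1A, a log2 fold change of -0.38 at an adjusted p of 0.0275 (edgeR), where HOXA4 went to 0. HOXB5 had 86 and 56 counts against 105 and 92, a log2 fold change of 0.35 (95% interval -0.14 to 0.84), where HOXA5 fell by 3.99. The pair of HOXA9 and HOXB9 was turned the other way, since HOXB9 had 115 and 169 counts against 18 and 6, a log2 fold change of -3.67 against -1.69 for HOXA9. HOXB13 changed by -0.94 and HOXA13 by -2.43 on the log2 scale. None of the 18 HOXC and HOXD genes was tested, and the highest count of any of them in any library was 8.

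**Figure D5:**
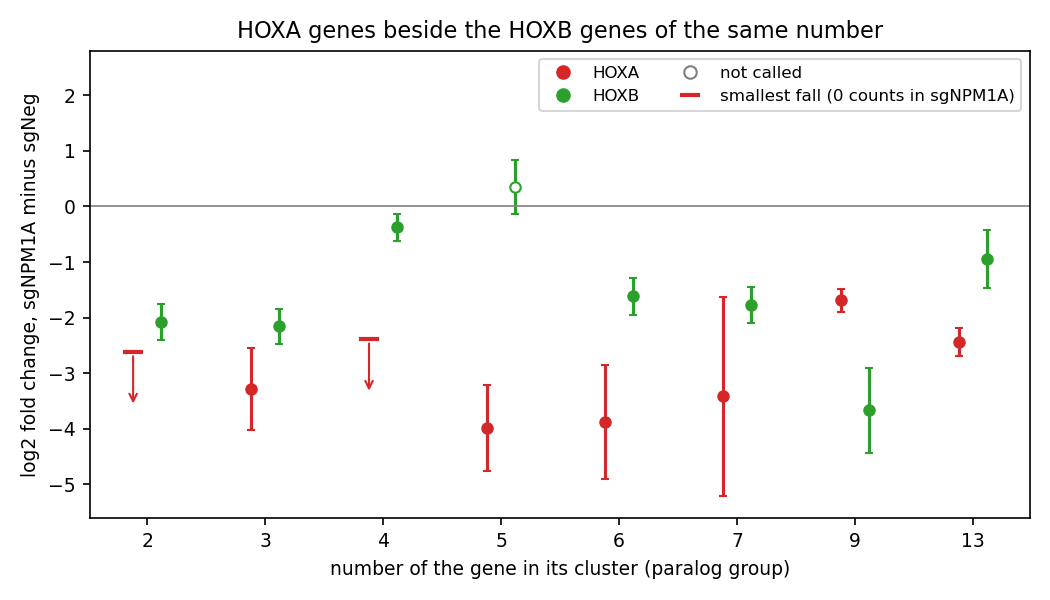
Log2 fold change (sgNPM1A minus sgNeg) with its 95% interval for HOXA genes (red) and the HOXB gene of the same number (green), with an open point for a gene not called and a dash with an arrow for the smallest fall of HOXA2 and HOXA4. HOXB4 (-0.38) and HOXB5 (0.35) lie near 0 above their HOXA paralogs, and HOXB9 (-3.67) lies below HOXA9 (-1.69).

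Of the TALE homeodomain cofactors that bind DNA with HOX proteins, 3 of the 7 tested and reported here were called lower. The share called lower among all tested genes was 10.3%. MEIS1, the partner of HOXA9 in leukemia, had 967 and 963 counts with sgNeg and 235 and 146 with sgNPM1A, and fell from 37.6 ± 0.607 to 6.84 ± 2.24 CPM (± SD, n = 2), which edgeR fitted as -2.46 ± 0.16 on the log2 scale (± SE, adjusted p = 1.13e-06). PBX3 had a log2 fold change of -0.59 at an adjusted p of 7.56e-04 (edgeR) and PKNOX1 of -0.41 (adjusted p = 0.00567, edgeR). MEIS2 (0.43), MEIS3 (0.03), PBX2 (-0.03) and PBX4 (-0.33, all log2 fold changes) were not called, and PKNOX2 was not tested.

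Genes known to act on the HOXA cluster were called in numbers near the background, in which 10.3% of tested genes were called lower, so that the counts say nothing particular about them. Of the listed activators, 13 of 15 were tested and 1 was called lower, AFF1, a subunit of the super elongation complex, with 2611 and 2069 counts with sgNeg and 1777 and 1949 with sgNPM1A (log2 fold change -0.45, adjusted p = 0.0106, edgeR). The median log2 fold change of the activators was -0.12. Of the 12 listed repressors, all tested, 1 was called lower, CBX2, a Polycomb subunit, with a log2 fold change of -0.56 at an adjusted p of 0.00152 (edgeR), and their median was -0.09. Both medians stood beside 0.00018 over all tested genes.

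Of the genes listed as targets of HOXA9 or HOXA10, 11 of the 12 reported here were tested. Among these 11, 4 were called lower and 1 higher, at a median log2 fold change of -0.34. For comparison, lower calls made up 10.3% and higher calls 10.5% of the whole test, whose median was 0.00018. SOX4, a transcription factor of progenitors, had 4482 and 5053 counts with sgNeg and 1996 and 1722 with sgNPM1A (log2 fold change -1.47), and CDK6, a cell cycle kinase, had 9894 and 9555 against 6051 and 5898 (log2 fold change -0.82). The receptor FLT3 had 275 and 237 against 562 and 580 (log2 fold change 1.04, adjusted p = 5.73e-05, edgeR).

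Markers of myeloid maturation moved in the same libraries. Of the 7 monocyte maturation markers reported here 6 were called higher, where 10.5% of all tested genes were. The summed level of the 7 was between 294 and 340 CPM with sgNeg and between 2792 and 3527 CPM with sgNPM1A. Most of this sum was LYZ, and the other 6 markers summed to 69.1 and 78.7 CPM with sgNeg and to 149 and 160 CPM with sgNPM1A. LYZ, lysozyme, had 6879 and 5571 counts with sgNeg and 73664 and 93496 with sgNPM1A (log2 fold change 3.63), and the Fc receptor gene FCGR1A had a log2 fold change of 1.71. CD14 (log2 fold change 0.34, adjusted p = 0.0557, edgeR) was the marker not called. Of the 8 myeloid blast markers, 7 were tested and 4 called higher, beside the same 10.5% of all tested genes. CSF3R (1.40) and MPO (1.77) had the smallest adjusted p among them. Of 8 markers of T, B, erythroid and stromal cells, 6 had 3 counts or fewer in every library, and their summed level was between 1.62 and 2.12 CPM with sgNeg and between 1.26 and 1.66 CPM with sgNPM1A. The part of these shifts in the HOXA values was not tested.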

How the data were processed

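Per the labels and the study's methods, RNA from 4 cultures was sequenced as paired ends, and the authors mapped the reads with STAR (genome build hg38) and deposited, for each Ensembl gene, raw counts. The counting program, annotation release and strand handling are not given in the sources used here. From these counts edgeR 4.0.16 in R 4.3.3 was run on all 4 libraries (filterByExpr with a minimum count of 10, TMM, robust quasi-likelihood F test, Benjamini-Hochberg over 15718 genes), two-sided. Symbols matched 55603 rows. A further 45 rows of pseudoautosomal copies were given no symbol but were not removed before the filter and the test. Positions and promoters are those of RefSeq. Exon lengths and overlaps come from GENCODE 44 models lifted to GRCh37. Members and gene lists were chosen with earlier results of these data known. Named genes were all members, noncoding HOXA genes, TALE cofactors, HOXB paralogs, up to 4 flanking coding genes on each side, NPM1, and in other lists up to 2 called genes in each direction by adjusted p. Some listed genes, called in either direction or not called, are not reported here for reasons unrelated to their values, and the counts over their lists leave them out. Alternatives were DESeq2 1.42.0, limma 3.58.1, other normalizations, filters, fold thresholds, blocks, lengths and leaving out each library. The precision of a count is limited by 2 libraries per condition.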

Additional observations from a re-analysis of the deposited data

How the results depend on the processing

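All 122 alternative log2 fold changes of single members that came with an adjusted p stayed negative and past the threshold. The number of members called lower was 10 under the alternatives except DESeq2 (8, since HOXA4 and HOXA7 got no adjusted p) and at least 10 counts in every library (4, since HOXA2 to HOXA7 were not tested), and 0 were called higher under any. The median log2 fold change of the members was -2.02 with that filter, and it ran from -4.25 (without sgNPM1A 1) to -2.59 (without sgNPM1A 2) when 1 library was left out, where the lone library is assumed to vary like the other condition. Over all genes, a fold of at least 2 left 498 called higher and 502 called lower, and leaving out 1 library gave 1239 to 1632 higher and 1179 to 1617 lower. Libraries of the same number did not deviate together (correlation -0.13 over 15718 genes and -0.52 over the 8856 with a mean above 10 CPM), the sign that crossed numbers would give. With the number as a replicate block 1637 genes were called higher and 1604 lower, with 10 members lower and a median of -3.36, and with the crossed block, which was chosen after seeing the data, 1955 and 1918. At this depth HOXA2, HOXA4, HOXA6 and HOXA7 were at or under 3 counts with sgNPM1A, so only bounds or wide ratios could be given.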
